A study of Mus musculus with 24 samples.

Results

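The miRNAs described here are mmu-miR-23a-3p, mmu-miR-27a-3p, mmu-miR-23b-3p, mmu-miR-27b-3p and mmu-miR-24-3p (the mouse prefix mmu is left out from here on), the 3p arms of a pair of paralogous clusters. They were chosen by name, with no measured value in the rule but with earlier results of these data known. They make up 5 of the 1881 mouse miRNAs on the array. Hepatocytes came from 3 untreated male C57BL/6J mice aged 3 months, which fed freely under a reversed light cycle. Each mouse gave 8 populations of 50000 cells, sorted from zone 1 (most CD73, next to the central vein) to zone 8 (most E-cadherin, next to the portal tract). All groups shared the same gates, which kept viable tetraploid (4n) hepatocytes lacking CD45 and CD31, so diploid hepatocytes were not measured. Every zone of every mouse had an array of its own, which makes 24 arrays and 3 per zone. RNA was pooled over cells, so fewer cells carrying a miRNA and less of it per cell cannot be told apart.

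A miRNA is a short RNA that guides Argonaute proteins to messenger RNAs, mostly by pairing of its seed, the bases from the second to the eighth, and so lowers their output. In each cluster hairpins of miR-23, miR-27 and miR-24 lie next to each other and are cut from a common transcript, and the family is known for roles in endothelial cells and the immune system, and miR-27 for repressing genes of lipid metabolism in hepatocytes. In the RefSeq table (GRCm38.p6, used for names and neighbours only) Mir23a, Mir27a and Mir24-2 are on chromosome 8. Mir23b, Mir27b and Mir24-1 are on chromosome 13 and overlap Aopep, a gene for an aminopeptidase. The Mir3074 genes overlap the miR-24 hairpins in both places. The mature sequences below, from RefSeq, show how close miR-27a-3p and miR-27b-3p are and what sets miR-23a-3p and miR-24-3p apart from them; capitals mark the seed.
miR-23a-3p: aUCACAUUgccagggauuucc
miR-27a-3p: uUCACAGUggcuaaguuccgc
miR-27b-3p: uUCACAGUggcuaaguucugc
miR-24-3p: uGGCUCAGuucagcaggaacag
miR-27a-3p and miR-27b-3p have the same seed and differ by C19U, counted from 1 at the 5′ end with the miR-27a-3p base first. How far the a and b miRNAs of either pair, miR-23 or miR-27, bind each other's probes was not tested. The seeds of miR-27a-3p and miR-23a-3p differ by G7U, counted in the same way along the mature miRNA. miR-24-3p is encoded in both clusters, as the hairpins show, with the mature miRNA in capitals.
Mir24-1: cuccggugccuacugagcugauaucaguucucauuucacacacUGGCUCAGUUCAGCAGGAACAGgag
Mir24-2: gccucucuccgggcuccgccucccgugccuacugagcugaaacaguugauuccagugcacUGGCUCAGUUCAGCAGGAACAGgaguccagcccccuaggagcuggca
The mature letters are the same in both, so the miR-24-3p signal cannot be split between chromosome 8 and chromosome 13, and the comparison of the clusters rests on the miR-23 and miR-27 pairs.

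Between 248 and 368 miRNAs were detected per array, and the summed signal lay between 57935 and 138301 intensity units. Each mouse had a slide of its own, so mouse and slide are 1 factor. Every slide carried zones 1 to 4 in row 1 and zones 5 to 8 in row 2, so the pericentral or periportal side of the axis and the slide row cannot be told apart. The 4 hepatocyte miRNAs of the marker list, miR-122-5p among them, were detected on all 24 arrays. Their summed scaled signal ranged from 7813 to 13217 in zones 1 to 4 and from 12586 to 17309 in zones 5 to 8. Most of this sum was miR-122-5p, which reached 11314 and 15227 in these zones. The highest signals were 1204 and 1324 for miR-192-5p, 526 and 560 for miR-194-5p, and 296 and 377 for miR-148a-3p. None of the 6 leukocyte, 5 stellate and 3 erythroid markers was detected on any array, and of 5 biliary markers miR-200b-3p appeared on 1 array. Of 5 endothelial markers the defining miR-126a-3p had a signal on 7 of the 12 arrays from zones 1 to 4 (up to 11.0) and on 9 of the 12 from zones 5 to 8 (up to 11.4). The other 4 were at 0. What part endothelial RNA has in the results was not tested.

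The first question was whether the members change along the axis. Both miRNAs of the chromosome 8 cluster rose towards the portal end, miR-23a-3p by 1.81-fold along the fitted line, while the 3 others did not pass the test. In all, 2 of 5 members rose and 0 fell, where 35 of 339 tested miRNAs rose (10.3%) and 22 fell (6.49%). With mouse as a replicate block, 49 rose (14.5%) and 56 fell (16.5%), and the members' calls did not change. A tested miRNA is one detected on at least 6 arrays. The call is an adjusted p under 0.05 for the slope on the zone number in limma, with Benjamini-Hochberg adjustment over all 339. miR-27a-3p passed the filter mainly through the periportal side, with a signal on 5 of 12 arrays from zones 1 to 4 and 10 of 12 from zones 5 to 8. Over its detected values alone the call was lost (limma adjusted p = 0.0814). The median fitted change from zone 1 to zone 8 was -0.01 over the 5 members and -0.10 over all tested miRNAs, on the log2 scale.

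Signals are given after scaling between arrays, in intensity units, and were read within a miRNA only, since probes differ in brightness. In mouse 1 the scaled signal of miR-23a-3p from zone 1 to zone 8 was 6.55, 6.43, 5.69, 5.58, 8.16, 9.32, 8.34 and 11.5. In mouse 2 it was 7.45, 6.74, 7.01, 4.98, 7.59, 9.42, 10.0 and 11.0, and in mouse 3 it was 7.13, 6.07, 6.47, 7.89, 8.64, 8.96, 11.9 and 12.2. Within each mouse all of zones 5 to 8 were above all of zones 1 to 4, which held for 5.60% of tested miRNAs. Across mice these sets overlapped, with zones 1 to 4 between 4.98 and 7.89 and zones 5 to 8 between 7.59 and 12.2. The fitted rise of miR-23a-3p over the axis was 0.85 ± 0.15 (SE, log2; limma adjusted p = 0.000159). That fit takes the 24 arrays as separate samples; with 1 slope per mouse, tested over 3 mice, the call was lost (limma adjusted p = 0.0744). The slope was positive in 3 of 3 mice, at 0.122, 0.103 and 0.141 log2 units per zone.

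A departure of miR-23a-3p from a straight line did not pass the test (quadratic term 0.0280 ± 0.0092, SE; limma adjusted p = 0.473, and 0.285 with the replicate block). Ordered by level, zones 4, 3, 2 and 1 came first, each overlapping its neighbour in range. Zones 5, 6, 7 and 8 followed in that order, and zones 6, 7 and 8 again overlapped as neighbours. Zones 4 and 5, which adjoin along the axis, overlapped too (zone 4 up to 7.89, zone 5 from 7.59). With mouse as a replicate block, the slope within zones 1 to 4 alone was -0.0674 ± 0.0455 per zone (SE; limma adjusted p = 0.494). Within zones 5 to 8 alone it was 0.164 ± 0.0365 per zone (limma adjusted p = 0.126), and it was positive in each mouse. In those zones 0 of 339 miRNAs rose past the adjusted threshold (0.00%) and 21 rose at an unadjusted p under 0.05 (6.19%). With slide row as a term, the slope over all zones was 0.0481 ± 0.0387 per zone (adjusted p = 0.647, limma), and under that fit 0 of 339 miRNAs were called (at an unadjusted p under 0.05, 19 rose, 5.60%, and 18 fell, 5.31%).

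At the ends, miR-23a-3p was 1.64-fold higher in zone 8 than in zone 1, at 11.6 ± 0.626 against 7.04 ± 0.461 (SD, n = 3), with no overlap of the arrays. The difference was 0.71 ± 0.17 (SE, log2; limma adjusted p = 0.0109). It was the 1 member called in this contrast, where 16 of 339 were higher (4.72%; 7.67% with the replicate block) and 2 lower (0.590%; 2.06%). Zone 8 lay above zone 1 with no overlap for 13.9% of tested miRNAs. This call was lost when any 1 mouse was left out (adjusted p 0.0561 to 0.165) and without zone 8 of mouse 3 (adjusted p = 0.052). It was also lost in a fit of zones 1 and 8 alone (adjusted p = 0.106) and without scaling between arrays (adjusted p = 0.056, limma).

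miR-27a-3p, whose hairpin is next to that of miR-23a-3p, was near the detection limit and was detected on 15 of 24 arrays. In mouse 1 it was detected in zone 1 at 2.51 and in zones 6, 7 and 8 at 3.53, 3.08 and 2.87. In mouse 2 it was detected in zone 2 at 2.17 and in zones 6, 7 and 8 at 2.19, 2.37 and 2.78. In mouse 3 it was detected from zone 2 to zone 8, at 2.05, 2.50, 2.09, 2.98, 2.99, 3.63 and 3.92. It therefore had a signal on 9 of 9 arrays from zones 6 to 8, and on 6 of 15 from the zones before them. That cut follows the detections of miR-27a-3p itself, and the share of all miRNAs with such a pattern was not counted. Since it passed the detection filter mainly through the periportal arrays, its entry into the test was not independent of its direction.

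The 9 undetected arrays were set to a floor of 1.12, and the size of the change rests on that floor. With it, miR-27a-3p rose by 1.23 ± 0.33 over the axis (SE, log2; limma adjusted p = 0.0107), with positive slopes in 3 of 3 mice. A floor 4 times lower gave 0.374 per zone in place of 0.176. Over the detected values alone the slope was 0.078 per zone and the call was lost (adjusted p = 0.0814, limma). It was also lost without mouse 3 (adjusted p = 0.109), without zone 7 (0.0544) and without zone 8 (0.0939). Zone 8 against zone 1 gave 1.10 ± 0.43 (SE, log2; limma adjusted p = 0.174), with 1 of 3 arrays of zone 1 detected.

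Beside the row on the slide, the slope of miR-27a-3p was 0.132 per zone with row as a term (limma adjusted p = 0.57). With mouse as a replicate block it was -0.0488 ± 0.134 within zones 1 to 4 (adjusted p = 0.89) and 0.313 ± 0.099 within zones 5 to 8 (limma adjusted p = 0.159). Only in mouse 3 was the slope within zones 1 to 4 above 0. The percentiles used for scaling were 58.9 to 96.1 on the 15 arrays with a signal and 52.3 to 72.6 on the 9 without, so the arrays without a signal were dimmer, with overlap. Arrays with a signal had 259 to 368 detected miRNAs of all kinds, and arrays without had 248 to 313. The part of array brightness in these calls was not tested.

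**Figure D1:**
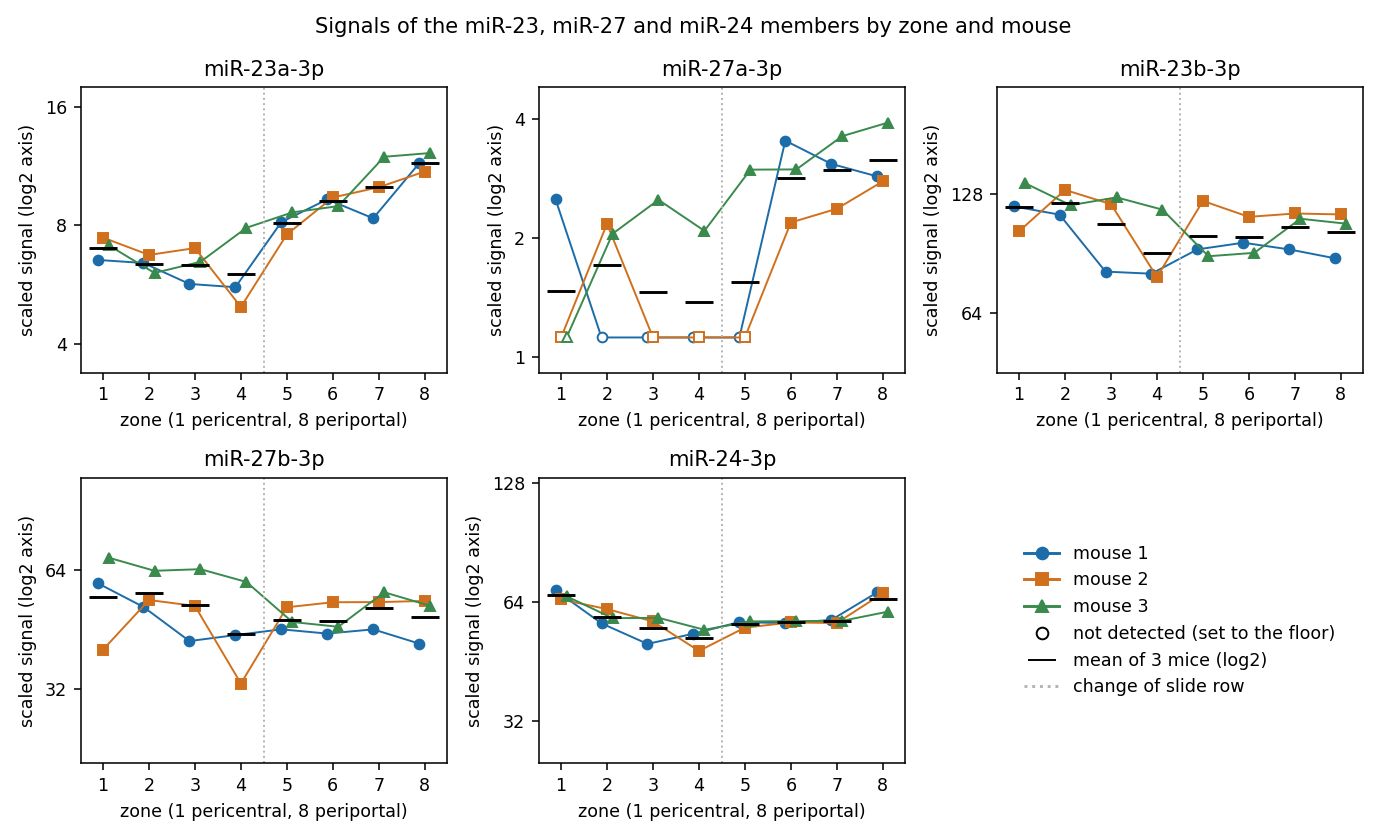
Scaled signal (log2 axis, each panel spanning the same number of doublings) of the 5 members against zone, by mouse, with open symbols for undetected values set to the floor of 1.12 and bars for the mean of log2 values of 3 mice. miR-23a-3p runs from 4.98 to 12.2 and is lowest in zones 1 to 4, miR-27a-3p leaves the floor in all mice from zone 6 on, and the other panels show no trend past the test.

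Neither miRNA of the chromosome 13 cluster passed the test. In mouse 1 the scaled signal of miR-23b-3p from zone 1 to zone 8 was 119, 114, 81.6, 80.6, 92.9, 96.5, 92.9 and 88.1. In mouse 2 it was 103, 131, 121, 79.1, 123, 112, 114 and 114, and in mouse 3 it was 137, 120, 126, 117, 89.2, 91.0, 111 and 108. No zone stood apart: every neighbour in the order of zone means, from zone 4 (92.2) to zone 2 (122), overlapped the next. The fitted change of miR-23b-3p was -0.22 ± 0.15 over the axis (SE, log2; 95% interval -0.53 to 0.09; limma adjusted p = 0.354), and 2 of 3 mice had a negative slope.

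miR-27b-3p, from the neighbouring hairpin, gave overlapping zones too. Its scaled signal in mouse 1 was 59.2, 51.5, 42.2, 43.7, 45.2, 44.1, 45.2 and 41.6 from zone 1 to zone 8. In mouse 2 it was 40.2, 53.7, 51.8, 33.0, 51.4, 53.0, 53.0 and 53.4, and in mouse 3 it was 68.7, 63.6, 64.2, 59.6, 47.2, 45.9, 56.1 and 51.9. Zone 1 held both the highest value of all, in mouse 3, and the second lowest, in mouse 2. The fitted change was -0.17 ± 0.16 (SE, log2; 95% interval -0.50 to 0.15; limma adjusted p = 0.497). Zone 8 against zone 1 gave -0.21 ± 0.20 for miR-23b-3p (adjusted p = 0.637) and -0.17 ± 0.22 for miR-27b-3p (adjusted p = 0.775, limma). The intervals include falls as well as no change, so the misses do not show that the levels were equal.

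In the scaling used, miR-24-3p, which either cluster can supply, had the narrowest range of the 5 members and was highest at both ends of the axis. In mouse 1 its scaled signal from zone 1 to zone 8 was 68.6, 56.6, 50.2, 53.3, 57.0, 56.7, 57.7 and 67.8. In mouse 2 it was 65.1, 61.5, 57.2, 48.2, 55.2, 56.9, 56.7 and 67.4, and in mouse 3 it was 66.3, 58.3, 58.5, 54.5, 57.2, 57.3, 57.5 and 60.6. In this scaling zones 1 and 8 were the highest in every mouse, and the lowest zone was zone 3 in mouse 1 and zone 4 in mice 2 and 3. Of these 2 zones, zone 1 was the higher in mice 1 and 3 and zone 8 in mouse 2. Without scaling between arrays, zone 8 was the highest in every mouse, and the place of zone 1 changed. Zone 1 of mouse 2 (48.1) was then below its zones 2, 3, 6 and 7 (60.0, 57.9, 64.2 and 61.4). Zone 1 of mouse 3 (61.6) was below its zones 2, 3, 5 and 6 (74.9, 62.0, 76.7 and 72.9). The straight line over the axis was flat, at -0.01 ± 0.10 (SE, log2; 95% interval -0.22 to 0.20; limma adjusted p = 0.954). Zone 8 against zone 1 gave -0.03 ± 0.11 (adjusted p = 0.944, limma).

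A slope that was negative within zones 1 to 4 and positive within zones 5 to 8 in every mouse was found for miR-24-3p among the members and for 3.24% of tested miRNAs. Within zones 1 to 4, with mouse as a replicate block, miR-24-3p fell by 0.117 ± 0.0241 per zone (SE; limma adjusted p = 0.0433). It was the 1 miRNA of 339 that fell past the threshold there (0.295%), while 6 rose (1.77%). This call, looked for after the profile had been seen, was lost without the block (adjusted p = 0.257), under each of 3 other scalings (0.359 to 0.638) and when any mouse or any of zones 1 to 4 was left out (0.169 to 0.862). A quadratic term over all zones was 0.0230 ± 0.0057 for miR-24-3p (unadjusted p = 0.000472; limma adjusted p = 0.16), and 0 of 339 miRNAs passed on it (0.00%; at an unadjusted p under 0.05, 6 dipped and 1 peaked in the middle). With the block its adjusted p was 0.0755 (limma). The unadjusted p of this term for miR-24-3p was 0.0729 without scaling between arrays, 0.177 on the summed signal and 0.0933 with quantile normalization (limma).

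**Figure D2:**
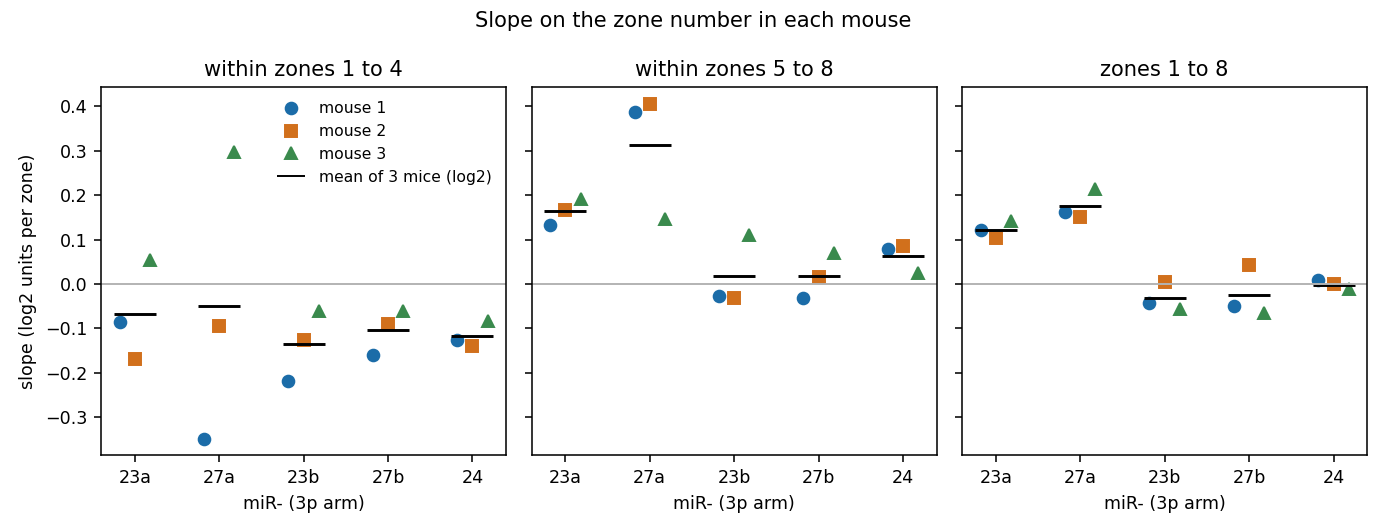
Slope on the zone number (log2 units per zone) for each member in each mouse, within zones 1 to 4, within zones 5 to 8 and over all zones, with bars for the mean of 3 mice. Over all zones miR-23a-3p (0.103 to 0.141) and miR-27a-3p lie above 0 in every mouse, while miR-24-3p lies below 0 within zones 1 to 4 and above 0 within zones 5 to 8.

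The comparison of the clusters asked whether a and b paralogs change alike. They did not: relative to its b paralog, miR-23a-3p rose 2.11-fold along the fitted axis. miR-27a-3p also rose relative to miR-27b-3p, by a size that rests on the floor: 2.65-fold with undetected arrays at the floor and 1.86-fold over the detected values alone. The quantity was the log2 difference a minus b within an array, and its change, not its level, was read. The scaling factor cancels in it where both miRNAs were detected. On the 9 arrays where miR-27a-3p was set to the floor it does not cancel, and the miR-27 difference there follows miR-27b-3p alone. For miR-23 the mean difference was -4.08 ± 0.25 in zone 1, -4.25 ± 0.09 in zone 2, -4.08 ± 0.22 in zone 3 and -3.91 ± 0.07 in zone 4 (SD, n = 3). It was -3.63 ± 0.34 in zone 5, -3.43 ± 0.13 in zone 6, -3.40 ± 0.16 in zone 7 and -3.15 ± 0.22 in zone 8. The mean was lowest in zone 2 and higher in each zone after it, and zones 1 to 4 still overlapped zones 5 to 8 across mice (-4.31 to -3.79 against -4.02 to -2.94). The fitted change was 1.08 ± 0.13 (SE, log2; limma adjusted p = 1.16e-07), with 1.15, 0.69 and 1.38 in the 3 mice.

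For miR-27 the mean difference was -5.22 ± 0.69 in zone 1, -5.03 ± 0.45 in zone 2, -5.15 ± 0.43 in zone 3, -5.00 ± 0.25 in zone 4 and -4.95 ± 0.84 in zone 5. It was -4.06 ± 0.49 in zone 6, -4.10 ± 0.33 in zone 7 and -3.95 ± 0.28 in zone 8 (SD, n = 3). Zones 1 to 5, where miR-27a-3p was often at the floor, had the lower means, but their arrays overlapped those of zones 6 to 8. Mouse 3 was at -3.98 in zone 5, and mouse 1 at -4.56 in zone 1, while mouse 2 was at -4.60 in zone 6. Since miR-27a-3p passed the detection filter mainly through the periportal arrays, the entry of this pair into the tests was not independent of its direction. The fitted change was 1.41 ± 0.29 (SE, log2; limma adjusted p = 0.000211), with 1.49, 0.77 and 1.96 in the 3 mice. With 1 slope per mouse, tested over 3 mice, the limma adjusted p was 0.00348. On the 15 arrays where miR-27a-3p was detected the slope was 0.128 per zone and passed the threshold (limma adjusted p = 0.00458), and with a floor 4 times lower it was 0.399 per zone. Permutation tests (two-sided, 100000 draws over 24 arrays) gave p = 1e-05 for the miR-23 pair, the smallest they can give (2e-05 adjusted over both pairs), with zone numbers moved over all arrays or within mice. For the miR-27 pair the permutation p was 0.00024 over all arrays and 0.00027 within mice, and adjustment over both pairs left these as they were.

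Both pairs are called in a setting where such calls are common. Of 90 a/b pairs on the array 15 had both miRNAs tested, and 7 of these 15 changed (46.7%), 5 with a rising difference (33.3%) and 2 with a falling one (13.3%). With the replicate block 9 changed (60.0%), 7 rising (46.7%) and 2 falling (13.3%). The largest change was that of miR-125a-5p minus miR-125b-5p, at 3.83 ± 0.46 (SE, log2). miR-101a-3p minus miR-101b-3p gave 1.00 ± 0.15 and let-7a-5p minus let-7b-5p 0.18 ± 0.07. miR-19a-3p minus miR-19b-3p fell by 0.25 and miR-193a-3p minus miR-193b-3p fell by 0.83. The miR-23 pair, at 1.08, was close to the miR-101 pair. The place of the miR-27 pair rests on the floor, since its change was 1.41 with the floor and 0.90 over detected values.

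**Figure D3:**
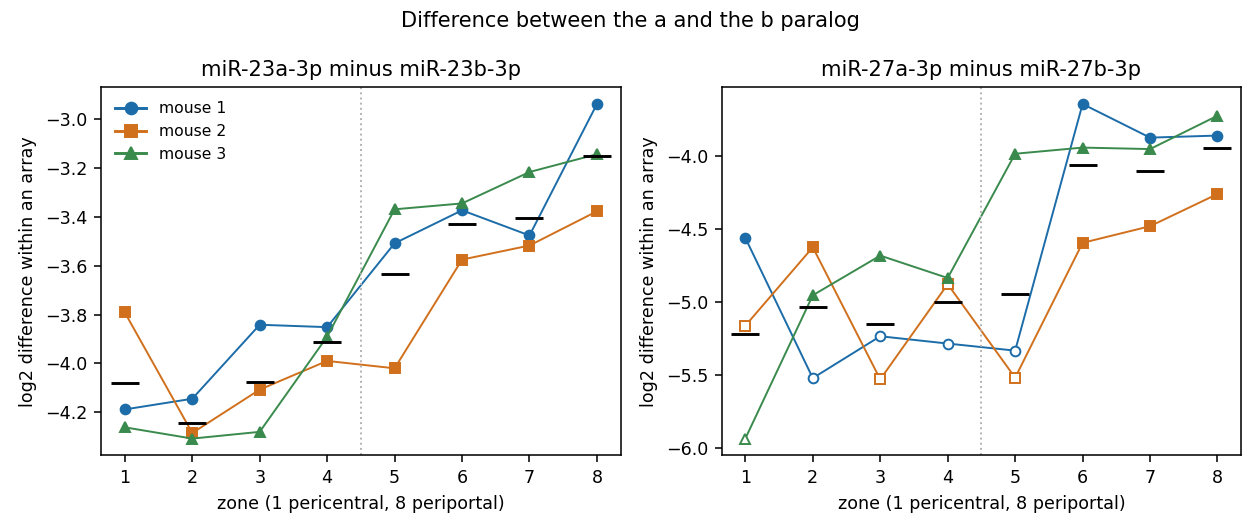
Log2 difference a minus b within an array against zone, by mouse, for the miR-23 and the miR-27 pair, with open symbols where miR-27a-3p was undetected and bars for the mean of 3 mice. The change along the axis and not the level is to be read: the miR-23 mean goes from -4.08 in zone 1 to -3.15 in zone 8. The miR-27 mean goes from -5.22 to -3.95 with its largest step between zones 5 and 6, a step not seen in mouse 3 (-3.98 and -3.94).

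**Figure D4:**
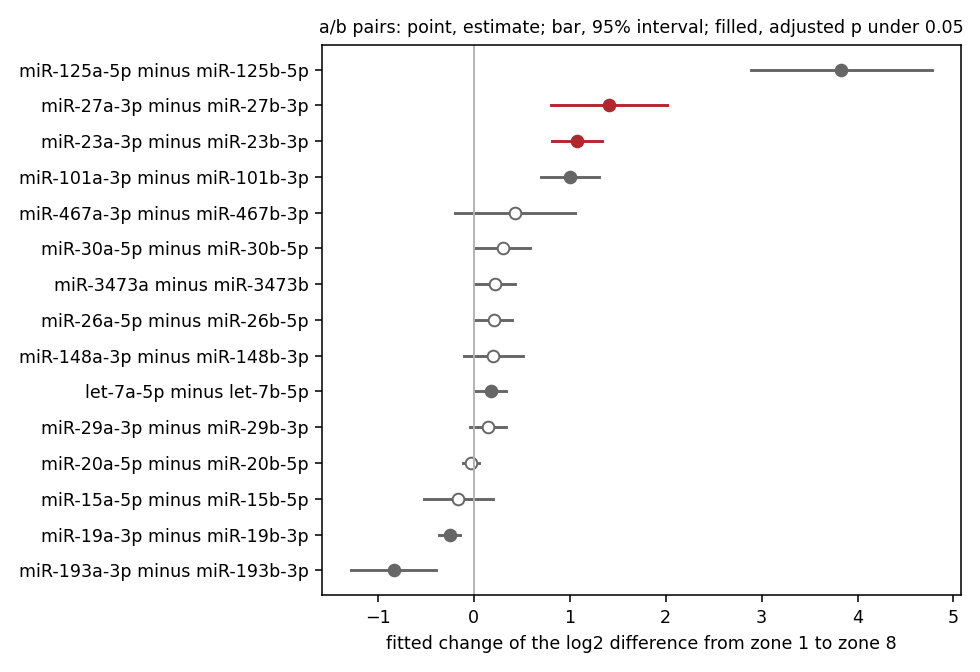
Fitted change of the a minus b difference from zone 1 to zone 8 (log2) for the 15 tested pairs, with 95% intervals and filled points for an adjusted p under 0.05. The miR-27 and miR-23 pairs (red), at 1.41 and 1.08, lie below miR-125 at 3.83, and the place of the miR-27 pair rests on the floor (0.90 over detected values).

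The fits on slide rows had mouse as a replicate block. Within the rows of the slides, the miR-23 difference had a slope of 0.0679 ± 0.0452 per zone in zones 1 to 4 (SE; limma adjusted p = 0.352). In zones 5 to 8 it had 0.147 ± 0.0334 (limma adjusted p = 0.0215) and was the 1 pair of 15 that rose there (6.67%). The miR-27 difference had 0.0546 ± 0.113 (adjusted p = 0.642) in zones 1 to 4 and 0.295 ± 0.102 (limma adjusted p = 0.0846) in zones 5 to 8. With row as a term the slopes were 0.107 (adjusted p = 0.0648) and 0.175 (limma adjusted p = 0.112), and 0 of 15 pairs passed (at an unadjusted p under 0.05, 3 rose, 20.0%, and 2 fell, 13.3%). Thus, with the block, the miR-23 difference rose within the second row of the slides, while the other within-row slopes missed the threshold. Whether that call holds without the block or with a mouse left out was not tested.

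Members of a cluster had more similar profiles than paralogs had. Across the 24 arrays, after each mouse's mean was subtracted, Pearson's r of log2 signals was 0.928 between miR-23b-3p and miR-27b-3p and 0.706 between miR-23a-3p and miR-27a-3p. It was 0.0143 between miR-23a-3p and miR-23b-3p and 0.0183 between miR-27a-3p and miR-27b-3p. These are descriptions, since the points share mice, slides and scaling. miR-24-3p lay between, with r of 0.419 to miR-23a-3p, 0.326 to miR-27a-3p, 0.511 to miR-23b-3p and 0.440 to miR-27b-3p. Within the chromosome 13 cluster, the mean change over the axis was 0.05 ± 0.19 larger for miR-27b-3p than for miR-23b-3p (SD over 3 mice, log2). The values of miR-27a-3p at the floor enter its r.

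The nearest profiles among miRNAs detected on all arrays, by the same measure, also differed by cluster. For miR-23a-3p they were miR-125b-5p (r 0.904), miR-221-3p (0.877) and miR-99a-5p (0.869), whose fitted changes were 1.71, 0.65 and 1.59 on the log2 scale. For miR-27a-3p they were miR-99a-5p (0.742), miR-30e-5p (0.716) and miR-125b-5p (0.712), with miR-23a-3p at rank 4. For miR-23b-3p they were miR-130a-3p (0.939), miR-15a-5p (0.931) and miR-27b-3p, and for miR-27b-3p they were miR-15a-5p (0.984), miR-23b-3p and miR-140-5p (0.894). miR-24-3p had no close match, with miR-98-5p (0.593), miR-365-3p (0.551) and miR-130a-3p (0.536) nearest. The median r over all ranked miRNAs was -0.23 for miR-23a-3p and 0.0926 for miR-23b-3p.

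No other product of the clusters was detected. The 6 opposite arms (miR-23a-5p, miR-27a-5p, miR-24-2-5p, miR-23b-5p, miR-27b-5p and miR-24-1-5p) and the 3 arms of the overlapping miR-3074 hairpins were on the array and detected on 0 of 24 arrays. Of other miRNAs with the seed of miR-24-3p, miR-5124b, miR-6369, miR-6410 and miR-6413 were likewise detected on 0 arrays. The seed of miR-27 was shared on the array by miR-27a-3p and miR-27b-3p alone among miRNAs with a sequence in the RefSeq table. miR-128-3p carries these 7 letters 1 base nearer its 5′ end, so that its own bases 2 to 8, in capitals, differ.
miR-128-3p: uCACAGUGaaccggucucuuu
It too was detected on 0 of 24 arrays, so miR-27a-3p and miR-27b-3p were the only detected miRNAs of those compared that carry the miR-27 seed.

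The scaling bears on the direction of the members that missed the test. The median change of all tested miRNAs was -0.10 (log2) in the scaling used, 0.10 without scaling (the 75th percentile over all miRNAs equals the undetected value and leaves arrays as they are), 0.04 with scaling on the summed signal and -0.07 with quantile normalization. Relative to that median, miR-23a-3p rose by 0.95 in the scaling used and by 0.98 to 1.02 in the others, and miR-27a-3p by 1.33 and by 1.19 to 1.38. miR-23b-3p was at -0.12 relative to the median (-0.17 to -0.09 in the others), miR-27b-3p at -0.075 (-0.20 to -0.04) and miR-24-3p at 0.09 (0.02 to 0.12). Before the median is subtracted, the estimate of miR-23b-3p was 0.01 without scaling, that of miR-27b-3p was 0.06 there, and that of miR-24-3p was 0.22 without scaling and 0.16 on the summed signal. None of these 3 was called under any scaling. Without scaling and on the summed signal, 92.3% and 88.0% of all calls were rises, against 61.4% in the scaling used.

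The precision of single spots differed among the members. As a share of the signal, the error in the files had a median of 7.32% for miR-24-3p, 7.95% for miR-23b-3p and 8.51% for miR-27b-3p. It was 14.1% for miR-23a-3p and 26.7% for miR-27a-3p where detected, so the members that rose were those measured least precisely.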

How the data were processed

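The authors deposited an intensity for every miRNA and array (total gene signal), with an error and a detection call; the submitters' processing notes name Agilent Feature Extraction. The version and any scaling between arrays are not given in the sources used here. Undetected miRNAs held 0.1 in the deposited files. Here each array was scaled to a common 75th percentile of the 198 miRNAs that every array detected. Scaled values below 1.12 (the lowest detected signal of an array, as a median of the 24) were set to it before log2. limma 3.58.1 (lmFit, eBayes; R 4.3.3) fitted slopes on the zone number, the contrast of zones 8 and 1, and the a minus b slopes, over all arrays with no block. Tests were two-sided, adjusted with Benjamini-Hochberg, with a threshold of 0.05.

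Mouse numbers pair the arrays, since a number stands for 1 animal. Deviations of same-mouse arrays from zone means correlated at a median of 0.61 (lowest 0.254, 84 pairs of arrays). Mouse as a replicate block was an alternative, beside other scalings, filters, floors, variance models and subsets. Slopes within rows, the quadratic term and the fits on detected values were added after the data were seen. Members and lists were chosen with earlier results of these data known. Named miRNAs were the members, other arms, seed sharers, the 3 nearest profiles per member, and called pairs. miR-128-3p was listed as sharing the miR-27 seed and did not by bases 2 to 8. Correlations were Pearson's. Scripts were tested on simulated data. Figures used matplotlib 3.10.9.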

Additional observations from a re-analysis of the deposited data

How the results depend on the processing

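The rise of miR-23a-3p over all zones and both a minus b changes kept their direction and call under the other scalings, the lower floor, the variance model with trend and robust, the replicate block, and when any mouse, zone or array was left out. They did not keep the call with slide row as a term. The causes of the changes below were not tested.

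Members that rose numbered 2, and 1 when all 24 arrays had to be detected, with 1 slope per mouse, with detected values alone, without mouse 3 or without zone 7 or 8, and 0 with slide row as a term or within either row. With 1 slope per mouse the miR-23a-3p call was the one lost (limma adjusted p = 0.0744). Within zones 1 to 4 the slopes were -0.0674 for miR-23a-3p, -0.0488 for miR-27a-3p, 0.0679 for the miR-23 pair and 0.0546 for the miR-27 pair, with 1 member falling and 0 pairs of the members rising. Within zones 5 to 8, fitted like zones 1 to 4 with the replicate block, 1 member pair rose (the miR-23 pair), and the miR-27 pair, at 0.295, missed the threshold. With slide row as a term the pairs had 0.107 and 0.175, and 0 rose. miR-27a-3p, and with it its pair, was left out where all 24 arrays had to be detected, leaving 1 pair. For zone 8 against zone 1, 0 members passed without scaling or with zones 1 and 8 alone.

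Of all tested miRNAs 35 rose and 22 fell. Rises numbered 0 with row as a term or within zones 5 to 8, 6 within zones 1 to 4, 12 with 1 slope per mouse and 22 with detected values alone. Falls numbered 3 without scaling, 6 with the summed signal, 56 with the replicate block, 1 within zones 1 to 4, 14, 12, 10 and 13 without zones 3, 6, 7 and 8, and 0 with row as a term, within zones 5 to 8 or with 1 slope per mouse. For zone 8 against zone 1, 16 rose (9 detected on all arrays, 26 with the replicate block) and 2 fell (7 with the block, 0 without scaling, with the summed signal or with zones 1 and 8 alone). Of 15 pairs 5 rose and 2 fell. With detection on all arrays 2 rose and 1 fell, with row as a term 0 and 0, within zones 1 to 4 2 and 0, and within zones 5 to 8 1 and 1. Falling pairs numbered 1 with quantile normalization, 1 slope per mouse, detected values alone or without zone 8.

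Leaving out 1 mouse, zone or array gave 1 to 2 rising members and 0 falling, 24 to 43 rises and 9 to 30 falls in all. For zone 8 against zone 1 it gave 0 to 1 members, 11 to 20 rises and 0 to 3 falls. For the pairs it gave 4 to 8 rises and 1 to 3 falls, with slopes of 0.132 to 0.182 for the miR-23 pair and 0.161 to 0.247 for the miR-27 pair. Detection limits miR-27a-3p, which was at the floor on 9 of 24 arrays.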
